A study of Mus musculus with 8 samples.

Results

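Follicular B cells are the main recirculating B cell population of the mouse spleen, and the 4 libraries described here are the control follicular B cells of a series of 8 libraries. They were chosen by genotype: mice of these 4 libraries carried the Rosa26GFPZFP36L1 allele without CD23cre, the Cre driver that the other 4 libraries carry in addition, so the allele is shared by the whole series. Spleen was the source, and a kit for B cell enrichment preceded the sort, which used a FACSAria III or Fusion cell sorter. The labels give the sorted cells as ex-vivo follicular B cells positive for B220, CD93, CD21 and CD23. Age and number of animals are not given in the labels, which also do not say whether the 4 libraries came from separate mice, so every spread below is the spread between these libraries. RNA was made into stranded mRNA libraries and sequenced as 100 bp pairs, and the 4 libraries held between 40976668 and 51024233 counts over genes.

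Mature follicular B cells carry IgM and IgD on their surface with the signalling chains CD79A and CD79B, and use CXCR5 and CCR7 to enter follicles and meet T cells. They are long-lived resting cells that depend on the survival factor BAFF, and present antigen on MHC class II molecules once stimulated. Levels are given below in TPM, each gene's count divided by the length of its exons and scaled so that all genes of a library sum to 1000000 on average, which lets genes be compared with each other. A gene was called detected at a mean of at least 1 TPM. Because these are bulk samples, fewer cells of a type and less RNA per cell cannot be told apart.

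Of 36599 genes with a level, 11352 (31.0%) were detected at 1 TPM or more, and 9941 of these were among the 21478 protein coding genes. The 31.0% includes non-coding genes, so it is a low reference for lists made mostly of protein coding genes. For such lists the nearer reference is 9941 of 21478, and every list count below is to be read beside it. A much smaller set carried most of the RNA: the 1478 genes at 100 TPM or more, which is 4.04% of the genes, held 74.0% of the summed level, and 114 genes at 1000 TPM or more held 41.1%. The summed level of 243 genes made up 50% of the total. Detected genes had a median of 23.8 TPM, and 23634 genes of the table had no count in any of the 4 libraries. A count of 0 over the 4 libraries allows up to 3 counts, which for a gene of 1 kb of exons is 0.0514 TPM, and such limits cover counting error only.

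**Figure D1:**
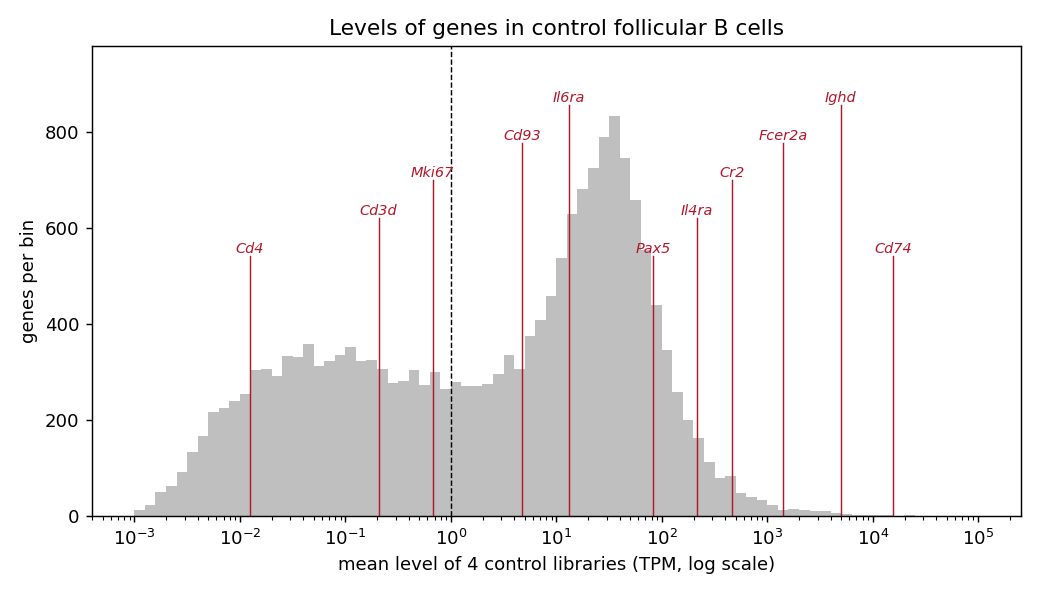
Number of genes per bin of mean level over the 4 control libraries (TPM, log scale), with 11 genes of different roles marked by vertical lines and the detection level of 1 TPM dashed. The detected genes form a mode near the median of 23.8 TPM, the marker genes Cr2, Fcer2a and Ighd lie to its right, and the T cell genes Cd4 and Cd3d lie below 1 TPM.

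The 20 most abundant genes fell into a few families. They included 8 mitochondrially encoded genes, led by mt-Co1 at 27220 ± 1604 TPM (SD, n = 4), which encodes a subunit of cytochrome c oxidase. Of B cell genes they included Cd74 (15620 ± 1179 TPM), Igkc (12450 ± 1397 TPM), Ighm (8564 ± 494 TPM), Cd79a (5479 ± 319 TPM) and Ighd (4983 ± 106 TPM), together with B2m (5687 ± 421 TPM), the light chain of MHC class I. The remaining 6 were translation genes, the elongation factor Eef1a1 at 12820 ± 477 TPM and 5 ribosomal protein genes. Eef1a1, Rps27rt and other ribosomal protein genes have near-identical copies in the genome, so their counts are uncertain. By share of all counts, the 83 ribosomal protein genes took 7.73%, 6.89%, 6.38% and 6.42% in replicates 1 to 4, and the 37 mitochondrially encoded genes 4.36%, 3.85%, 4.10% and 3.89%. The 338 immunoglobulin genes took 1.70%, 1.66%, 1.72% and 1.60% of counts.

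The 3 genes taken here as markers of follicular B cells were all among the more abundant genes. The gate in the labels already selected cells for CD21 and CD23, so Cr2 and Fcer2a are no independent check of cell identity. Cr2 is also in the marginal zone list below. Fcer2a (ENSMUSG00000005540, GRCm38 chromosome 8, 3681737 to 3694175), the gene of CD23, stood at 1397, 1404, 1494 and 1339 TPM in replicates 1 to 4, a mean of 1409 ± 64.0 TPM. Ighd (ENSMUSG00000104213, chromosome 12, 113406604 to 113416324), the IgD constant region, stood at 5046, 5066, 4989 and 4832 TPM. Cr2 (ENSMUSG00000026616, chromosome 1, 195136811 to 195176716), which encodes CD21, the complement receptor that lowers the threshold of the B cell receptor, stood at 479, 477, 465 and 427 TPM. These genes ranked 82, 20 and 266 among all genes with a level, and no library stood apart in any of them. The gate in the labels also names CD93, a marker of immature B cells. Its gene Cd93 (ENSMUSG00000027435, chromosome 2, 148436640 to 148443563) was at 3.76, 4.59, 4.55 and 5.92 TPM, a mean of 4.71 ± 0.89 TPM and rank 9402. Whether the label gives the sign of CD93 as it was sorted could not be settled from the files.

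All 22 genes of the B cell receptor signalling list and 9 of the 10 genes of the receptor itself and its co-receptors were detected. The constant regions of IgM and IgD were both abundant, with Ighm at 8737, 8217, 9182 and 8119 TPM. The ratio of Ighm to Ighd was 1.73, 1.62, 1.84 and 1.68 in the 4 libraries, so the IgM constant region was the higher of both in every library. Igkc, the kappa light chain constant region, was at 14300, 12270, 12350 and 10900 TPM, and its ratio to the lambda constant gene Iglc2 was 4.17, 4.23, 4.32 and 3.94, and other lambda constant genes are not analysed here. Class-switched constant genes were low: the Ighg and Igha genes summed to 31.8, 28.0, 29.0 and 26.9 TPM, most of it from Igha at 17.3 TPM. The signalling chains Cd79a and Cd79b (3714 ± 305 TPM) stood in a ratio of 1.42 to 1.53.

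Co-receptor genes differed widely in level. The tetraspanin gene Cd81 was at 214, 144, 142 and 137 TPM, so replicate 1 was above the other 3, which lay close together. Of the interferon-induced membrane genes in the same list, Ifitm3 was at 6.38 ± 1.32 TPM and Ifitm2 at 0.92 ± 0.78 TPM. Among the kinases and adaptors, Blk (627 ± 13.3 TPM), Syk (435 ± 13.3 TPM), Btk (349 ± 5.10 TPM) and Lyn (334 ± 17.3 TPM) led, with the adaptor Grb2 at 359 ± 13.3 TPM and phospholipase Plcg2 at 318 ± 8.71 TPM. Blk is the Src family kinase most confined to B cells, Syk passes the signal on from the phosphorylated receptor chains, and Btk activates Plcg2. Fyn, another Src family kinase, was the lowest of the 22 at 32.3 ± 1.54 TPM. In this list neighbouring genes were often not separable: 9 of 21 neighbouring pairs in the order of levels had library values that did not overlap.

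Genes that restrain the receptor were also abundant. Of 15 such genes 13 were detected, with a median over all 15 of 136 TPM beside 198 TPM for the signalling list. Cd22, an inhibitory lectin, stood at 1172, 1224, 1267 and 1259 TPM, and the phosphatase it recruits, Ptpn6, at 1286, 1216, 1183 and 1121 TPM. The kinase Csk (491 ± 18.4 TPM), the lectin Siglecg (490 ± 9.46 TPM), the adaptor Dok3 (472 ± 26.2 TPM) and Cd72 (398 ± 31.5 TPM) followed, and the inhibitory Fc receptor Fcgr2b was at 136 ± 5.19 TPM. Ptpn22, a phosphatase, varied most among them, with 20.4, 15.6, 28.1 and 26.8 TPM; replicates 3 and 4 lay above replicates 1 and 2. Cd5 (0.45 TPM) and Lair1 (0.58 TPM) were the members below 1 TPM.

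Every gene of the 25-gene B lineage surface list was detected. Ly6d, a surface protein present from early B cell stages on, was highest at 4242, 3805, 3216 and 3217 TPM, with replicates 1 and 2 above the other 2. Next came the small glycoprotein gene Cd52 (2621 ± 287 TPM), then Fcer2a, the tetraspanins Cd37 (1395 ± 47.6 TPM) and Cd53 (1204 ± 99.7 TPM), and Ms4a1, the gene of CD20, at 1015, 1034, 963 and 892 TPM. The inhibitory receptor Btla was at 734 ± 87.8 TPM, Cd24a at 573 ± 43.6 TPM and the complement regulator Cd55 at 497 ± 25.0 TPM. Ptprc, which encodes B220 as one of its isoforms, was at 332, 342, 342 and 329 TPM, an SD of 6.72 TPM. The tetraspanin Cd9 (7.81 ± 0.33 TPM) and Cd93 were the lowest.

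**Figure D2:**
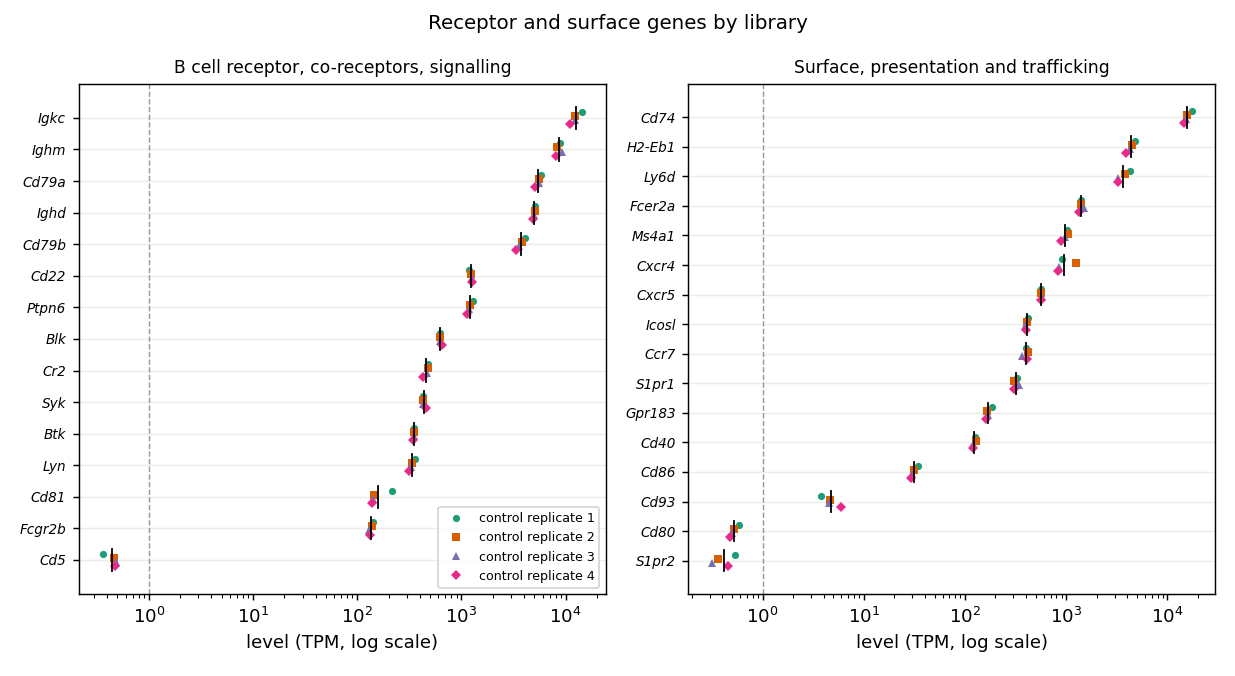
Level of 31 receptor, surface, presentation and trafficking genes in each of the 4 control libraries (TPM, log scale); symbols are libraries, black ticks are means and the dashed line is 1 TPM. The 4 symbols of most genes lie on top of each other, while replicate 1 of Cd81 (214 TPM) and replicate 2 of Cxcr4 (1248 TPM) lie apart.

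Antigen presentation genes were among the most abundant of all, with 16 of 18 listed genes at 100 TPM or more, beside 4.04% of all genes. The invariant chain Cd74, which guards the class II groove until peptides are loaded, was at 17300, 15500, 15110 and 14580 TPM. Its class II partners H2-Eb1 (4800, 4449, 4268 and 3925 TPM), H2-Ab1 (3802 ± 215 TPM) and H2-Aa (3742 ± 320 TPM) formed the next tier, and together with Cd74 these genes took 2.09%, 1.94%, 1.87% and 1.81% of counts. The peptide exchange chains followed, with H2-DMb2 at 1589 ± 93.6 TPM, H2-DMb1 at 442 ± 49.5 TPM and H2-DMa at 361 ± 28.2 TPM. Their inhibitors in B cells, H2-Ob (956, 962, 962 and 987 TPM) and H2-Oa (706, 664, 651 and 652 TPM), were well above H2-DMa in each library. H2-DMb1 and H2-DMb2 are closely related copies, so the split of reads between them is uncertain. Ciita, the master regulator of class II genes, was at 177, 197, 199 and 209 TPM, and the protease Ctss, which trims the invariant chain, at 1365 ± 81.9 TPM.

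Class II promoters share a short conserved module that includes a Y box, an inverted CCAAT motif bound by the factor NF-Y. The 250 bases upstream of 6 class II genes are shown, of which H2-DMb1 was the lowest at 442 TPM. H2-DMa, at 361 TPM, has 2 promoter entries and is not printed, and its matches are given below. Sequences are from RefSeq on GRCm38.p6, written in the direction of transcription, with capitals marking CCAAT or its reverse complement ATTGG.
H2-Aa (chr17:34287824-34288073, minus strand): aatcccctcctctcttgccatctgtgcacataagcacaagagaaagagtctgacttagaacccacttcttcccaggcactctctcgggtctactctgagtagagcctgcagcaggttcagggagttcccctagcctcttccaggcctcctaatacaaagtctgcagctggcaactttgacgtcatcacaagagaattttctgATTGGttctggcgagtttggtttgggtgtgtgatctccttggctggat
H2-Eb1 (chr17:34305617-34305866, plus strand): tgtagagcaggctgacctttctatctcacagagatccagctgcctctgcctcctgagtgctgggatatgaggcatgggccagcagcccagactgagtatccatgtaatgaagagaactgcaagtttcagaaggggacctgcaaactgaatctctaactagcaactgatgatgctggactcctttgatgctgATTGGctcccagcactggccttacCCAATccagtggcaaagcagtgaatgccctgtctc
H2-DMb1 (chr17:34152941-34153190, plus strand): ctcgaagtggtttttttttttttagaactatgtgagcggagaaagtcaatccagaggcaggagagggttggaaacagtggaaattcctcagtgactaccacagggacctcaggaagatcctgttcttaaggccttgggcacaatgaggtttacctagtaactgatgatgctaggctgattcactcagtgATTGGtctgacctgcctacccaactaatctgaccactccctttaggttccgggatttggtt
H2-DMb2 (chr17:34144999-34145248, plus strand): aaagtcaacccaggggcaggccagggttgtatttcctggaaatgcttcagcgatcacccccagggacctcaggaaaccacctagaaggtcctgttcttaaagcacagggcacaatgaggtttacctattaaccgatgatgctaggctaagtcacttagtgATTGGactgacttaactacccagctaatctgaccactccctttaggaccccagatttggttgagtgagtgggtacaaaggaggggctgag
H2-Oa (chr17:34092129-34092378, plus strand): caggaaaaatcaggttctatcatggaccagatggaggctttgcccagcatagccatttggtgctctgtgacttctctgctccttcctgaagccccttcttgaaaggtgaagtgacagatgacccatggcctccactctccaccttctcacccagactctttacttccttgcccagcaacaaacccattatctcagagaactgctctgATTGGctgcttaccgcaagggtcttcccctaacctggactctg
H2-Ob (chr17:34238655-34238904, plus strand): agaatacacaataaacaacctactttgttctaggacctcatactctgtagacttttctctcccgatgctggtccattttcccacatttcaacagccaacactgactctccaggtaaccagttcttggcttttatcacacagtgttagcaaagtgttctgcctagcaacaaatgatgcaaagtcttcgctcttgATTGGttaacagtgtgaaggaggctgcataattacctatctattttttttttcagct
Of 8 class II genes listed, the 7 with a promoter entry were searched, and all 7 held CCAAT on at least 1 strand. By promoter, 7 of 8 entries (87.5%) held it, against 33.8% of all 32851 promoters of this length. The motif began 48 bases before the start in H2-Aa, 61 in H2-DMb1, 90 in H2-DMb2, 43 in H2-Oa and 57 in H2-Ob, and H2-Eb1 held it on both strands, at 59 and 35 bases before the start. H2-DMa differed: its entry at chr17:34122582-34122831 held no match, and its entry at chr17:34125268-34125517 held it only at 198 bases before the start. A match is a description of the letters only, and H2-Ab1 was not searched.

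Co-stimulatory genes covered a wide range. Icosl, the ligand for ICOS on T cells, was at 418, 405, 393 and 404 TPM, and Cd40, the receptor for T cell help, at 125, 127, 121 and 119 TPM. Cd86 was at 34.0, 31.4, 29.8 and 29.3 TPM, while the related ligand Cd80 was the single member of the list under 1 TPM at 0.52 ± 0.04 TPM. The peptide transporter genes Tap1 (198 ± 3.27 TPM) and Tap2 (160 ± 7.14 TPM) of the class I pathway were close to Ciita in level.

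Homing receptors for the follicle were high, and 18 of 24 trafficking genes were detected. Cxcr5, which guides B cells into follicles along CXCL13, was at 558, 569, 575 and 568 TPM and was the most even of the high members, with an SD of 6.88 TPM. Cxcr4, which responds to CXCL12, was at 915, 1248, 847 and 828 TPM, with replicate 2 above the rest. Ccr7 (400 ± 26.03 TPM) and Gpr183 (170 ± 11.4 TPM) position cells at the border with the T cell zone, and S1pr1 (321 ± 18.4 TPM) drives exit from lymphoid tissue. Their levels were apart: the lowest library of Ccr7 was above the highest of S1pr1, and S1pr1 lay above Gpr183 in all 4. P2ry10 (407 ± 33.0 TPM), the integrin Itgb7 (318 ± 20.7 TPM) and the cannabinoid receptor Cnr2 (245 ± 10.51 TPM) were also among the 8 highest. Under 1 TPM were Cxcr3 (0.98 TPM), S1pr2 (0.42 TPM), which retains germinal centre cells, Ccr9, S1pr5, Ccr10 and Ltb4r1.

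Receptors of the type I cytokine family, which signal through Janus kinases, split into a few high genes and many near 0. Of 31 genes 16 were detected (51.6%), beside 9941 of 21478 protein coding genes, and 5 were at 100 TPM or more. Il21r, the receptor of a T helper cytokine for B cells, was highest at 318, 285, 330 and 294 TPM. Il2rg, the common gamma chain it shares with other receptors, was at 277, 248, 231 and 234 TPM, and Il4ra, the chain for interleukin 4, at 226, 220, 210 and 208 TPM. Library values of these 3 did not overlap, so their order held in each library. Of the exon bases of Il2rg, 30.5% are shared with a gene on the same strand, so its count and its place in this order are uncertain. Il27ra (103 ± 2.91 TPM) and Il9r were next and could not be ordered. Il9r was at 78.5, 86.7, 126 and 120 TPM, with replicates 3 and 4 above replicates 1 and 2. Crlf2 (57.5 ± 4.90 TPM), Il5ra (26.8 ± 3.68 TPM) and Csf2ra (15.5 ± 1.78 TPM) followed, and Il6ra was at 13.1 ± 1.96 TPM.

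The partner chains of several receptors were low. Il2ra (0.80 ± 0.16 TPM) and Il2rb (0.10 ± 0.03 TPM), the other chains of the interleukin 2 receptor, were both under 1 TPM beside the abundant Il2rg. Il7r, needed by B cell precursors, was at 0.083 TPM, and Il13ra1, the second chain of an alternative interleukin 4 receptor, at 0.22 TPM. Epor and Il13ra2 had no count. Of the beta chains, Csf2rb, shared by Il5ra, Il3ra and Csf2ra, was detected at 5.84 ± 0.68 TPM, below Il5ra in each library.

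The promoter of Il4ra is shown because, alone in this family, it held the octamer ATGCAAAT, the element bound by OCT factors and their coactivator Pou2af1 in B cells. Capitals mark the octamer, which began 139 bases before the RefSeq start on GRCm38.p6.
Il4ra (chr7:125552021-125552270, plus strand): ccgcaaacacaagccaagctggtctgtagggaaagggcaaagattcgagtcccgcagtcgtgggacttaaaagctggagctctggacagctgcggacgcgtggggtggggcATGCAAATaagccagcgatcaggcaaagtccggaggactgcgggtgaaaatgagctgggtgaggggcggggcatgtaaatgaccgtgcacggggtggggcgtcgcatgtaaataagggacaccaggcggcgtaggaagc
With 26 of the 31 genes having a promoter entry, the octamer was in 3.03% of 33 entries of the family, beside 1.6% of all promoters, searched on both strands. It was in 0 of 5 entries of the B cell receptor and co-receptor genes. Of 47 entries of B lineage transcription factors, 2.13% held it. The match in Il4ra is a description of the letters only, and a link to its level was not tested.

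In the type II family 7 of 10 genes were detected. Il10ra, the chain that binds interleukin 10, was highest at 323, 372, 334 and 351 TPM, while its partner Il10rb was at 44.0 ± 3.59 TPM. The interferon gamma receptor chains Ifngr1 (122 ± 3.33 TPM) and Ifngr2 (75.0 ± 4.61 TPM) were both above the second type I interferon receptor chain, Ifnar2 (26.9 ± 1.32 TPM), in every library. Ifnar1, at 71.8, 82.2, 74.6 and 83.1 TPM, overlapped with Ifngr2. Ifnlr1 was at 4.49 TPM, and Il20ra and Il22ra1, receptor genes of barrier tissues, had no count.

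Receptors of the TNF family were dominated by BAFF receptors. Tnfrsf13c, which encodes the BAFF receptor needed for survival of mature B cells, was at 683, 664, 602 and 573 TPM. Tnfrsf13b, the gene of TACI, was at 278, 273, 283 and 267 TPM, and Tnfrsf17, the receptor of plasma cells for the same ligands, had no count in any library. The 3 receptors of this ligand family ranged from 630 TPM to 0 in mean level. Cd40 came next, followed by Tnfrsf14 (57.4 ± 7.85 TPM), with replicate 1 at 45.7 TPM and the others at 60.7 to 62.3 TPM. Tnfrsf18 and Tnfrsf1b, the type 2 TNF receptor, were at 34.8 ± 2.66 and 33.2 ± 1.19 TPM with overlapping ranges. Of the 20 genes, 10 were under 1 TPM, among them Cd27 (0.73 TPM), a memory B cell marker in humans, and Tnfrsf1a and Ltbr, each at about 0.03 TPM.

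**Figure D3:**
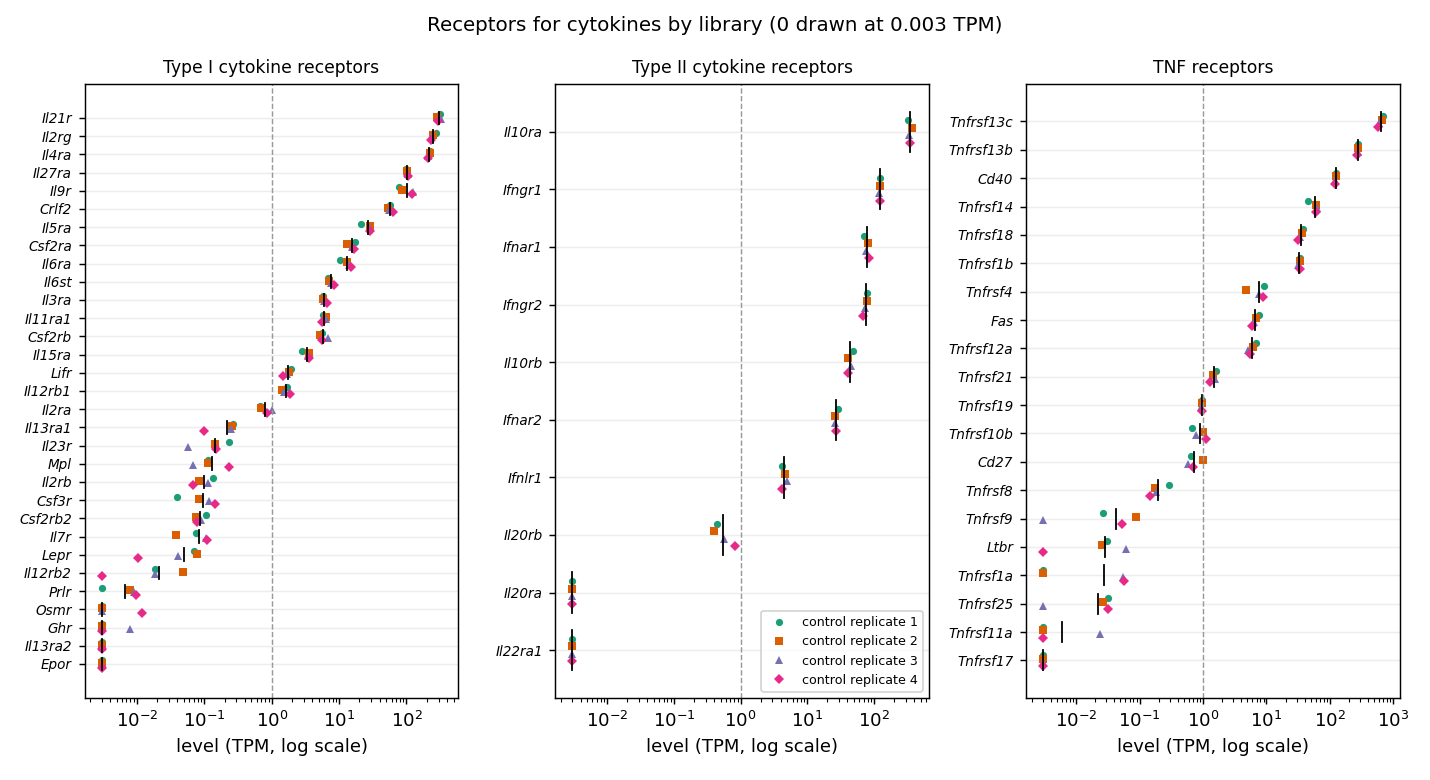
Levels of 31 type I cytokine receptors, 10 type II receptors and 20 TNF receptors in the 4 control libraries (TPM, log scale; genes with no count are drawn at 0.003 TPM). In each family a few genes lie above 100 TPM with libraries close together, and 15, 3 and 10 genes respectively lie below the dashed line at 1 TPM.

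Receptors of the interleukin 1 and 17 families were mostly below detection, with 2 of 12 detected. Il17ra was at 99.7, 96.0, 97.1 and 98.2 TPM, a very even level, and Il1rap at 3.51 TPM. Of the TGF-beta family 4 of 10 were detected (40.0%), beside 31.0% of all genes and 9941 of 21478 protein coding genes. Tgfbr2 (159 ± 4.68 TPM), Acvr1b (39.1 ± 2.99 TPM) and Tgfbr1 (26.5 ± 1.89 TPM) led, with all neighbouring pairs apart. Among Janus kinases and STAT factors, Jak1 (303 ± 12.2 TPM), Stat6 (242 ± 7.09 TPM), Stat2 (108 ± 3.30 TPM) and Jak2 (103 ± 6.75 TPM) led. Jak3, which pairs with the common gamma chain, was at 73.0 ± 5.70 TPM. The feedback inhibitors induced by cytokines were low: Socs1 was at 1.41 TPM, and Socs2 and Cish were below 0.1 TPM, while Socs3 was at 14.0, 9.15, 10.2 and 13.6 TPM.

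Of 30 cytokine and chemokine genes 12 were detected (40.0%), beside 31.0% of all genes and 9941 of 21478 protein coding genes. Ltb, a subunit of lymphotoxin, which maintains follicular stroma, was far above the rest at 1139, 1067, 988 and 1028 TPM. Its partner Lta was at 96.7 ± 11.8 TPM, with Il16 at 195 ± 8.22 TPM and Tgfb1 at 96.5 ± 3.38 TPM. Il12a (44.1 ± 3.91 TPM) and Ebi3 (34.0 ± 2.84 TPM), which together encode interleukin 35, were close in level, and Tnf was at 35.5 ± 3.99 TPM. Il10 (0.011 TPM) and Il2 (0.016 TPM) were near 0, and Il4, Il6, Il21 and Cxcl13 had no count.

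All 35 genes of the B lineage transcription factor list were detected, against 31.0% of all genes, and 32 were at 10 TPM or more. The coactivator Pou2af1 was highest at 1041, 1052, 1257 and 1179 TPM, followed by the ETS factor Spib at 1048, 1041, 997 and 990 TPM, and their ranges overlapped. Ets1 was at 441, 465, 488 and 505 TPM, apart from both and from the genes below it. The Ikaros factors Ikzf1 (256, 255, 269 and 254 TPM) and Ikzf3 (209, 293, 297 and 306 TPM) were similar, with Ikzf3 of replicate 1 below the other 3 libraries. Nfkb2 (231 ± 3.13 TPM) and Irf8 (215 ± 9.38 TPM) completed the 8 highest with Stat6. The factors that set B cell identity were at moderate and similar levels. Pax5 was at 79.1, 81.8, 84.6 and 84.3 TPM, Ebf1 at 75.1, 91.3, 92.4 and 88.9 TPM, and Foxo1 at 88.2, 84.4, 95.4 and 90.2 TPM. The run of genes from Irf4 (127 ± 5.49 TPM) down to Nfkb1 (78.9 ± 1.77 TPM) had overlapping ranges in all neighbouring pairs, though Irf4 was above Pou2f2 in each of the 4 libraries. In the whole list 14 of 34 neighbouring pairs were apart.

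Factors that change with activation were also present. Bach2, which opposes plasma cell formation, was at 71.0, 82.9, 94.0 and 103 TPM, and Bcl6, the factor of germinal centres, at 68.8, 61.7, 46.3 and 46.4 TPM. Bcl6 was higher in replicates 1 and 2 than in replicates 3 and 4, while Bach2 was the other way round. Of the NF-kB subunits Rela was at 129 ± 1.78 TPM, Rel at 58.1 ± 8.48 TPM and Relb at 51.9 ± 2.57 TPM. The lowest 3 were Sox4 (4.69 TPM, with 54.6% of its exon bases also covered by a gene on the opposite strand), Myb (1.31 TPM) and Lef1 (1.25 TPM), factors of earlier stages.

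Regulators of quiescence were all detected, 12 of 12. The antiproliferative genes Btg1 (588 ± 44.4 TPM) and Btg2 (423 ± 25.8 TPM) and the leucine zipper gene Tsc22d3 (497, 624, 558 and 554 TPM) were highest, followed by Klf2 at 401, 359, 358 and 381 TPM, which maintains S1pr1 in lymphocytes. Klf13 (132 ± 8.89 TPM), Klf6 (119 ± 11.6 TPM), Foxp1 (98.7 ± 4.88 TPM) and Foxo3 (35.3 ± 2.56 TPM) followed, and Klf4 was lowest at 5.47 TPM.

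Of 27 transcription factors of other fates 13 were detected (48.1%), beside 9941 of 21478 protein coding genes. Hhex (88.3 ± 9.70 TPM), the secretory factor Xbp1 (79.0 to 102 TPM), Myc (53.0 ± 6.61 TPM), Zbtb7b (50.4 ± 1.98 TPM) and Batf (22.1 ± 2.59 TPM) were the only members at 10 TPM or more. Prdm1, the plasma cell factor, was at 0.61, 0.92, 0.90 and 0.76 TPM. Several factors of T cells and other lineages were lower still, with Gata3 (0.008 TPM) and Foxp3 (0.007 TPM) near 0. Eomes, Gata2 and Bcl11b had no count. The 13 detected members, Zbtb7b among them, all lay above Prdm1 in mean level.

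The ZFP36 family of RNA-binding proteins destabilises messages with AU-rich elements, and the allele carried by these mice concerns its member Zfp36l1 (ENSMUSG00000021127, chromosome 12, 80107754 to 80113013). In these Cre-free libraries Zfp36l1 was at 599, 523, 529 and 534 TPM, Zfp36l2 at 326, 456, 420 and 413 TPM, and Zfp36 at 382, 330, 361 and 377 TPM. Replicate 1 was the highest of the 4 for Zfp36l1 and the lowest for Zfp36l2. The 3 genes with Zfp36l3 (0.052 TPM) and the Rosa26 transcript summed to between 1340 and 1348 TPM in each library. That sum depends on which genes it holds, and a link between the levels of these genes was not tested. Of the exon bases of Zfp36l1, 55.9% are also covered by a gene on the opposite strand, and the labels give no strand setting for the counting. The transcript of the Rosa26 locus, Gt(ROSA)26Sor, was at 35.2, 30.4, 29.4 and 24.0 TPM.

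Pattern recognition genes showed 19 of 24 detected. Unc93b1, the chaperone that carries nucleic acid receptors to endosomes, was at 809, 723, 807 and 760 TPM. Of Toll-like receptors Tlr1 was highest (262 ± 9.27 TPM), followed by the DNA receptor Tlr9 (101, 113, 117 and 131 TPM) and the RNA receptor Tlr7 (53.0, 49.4, 67.8 and 61.5 TPM). Tlr4 was at 21.2 ± 2.06 TPM and Tlr2 at 11.5 ± 0.50 TPM, while Tlr8 was at 0.005 TPM and Tlr5 had no count. The cytosolic DNA pathway gene Tmem173, which encodes STING, was at 160 ± 2.29 TPM and the DNA sensor Aim2 at 102 ± 3.89 TPM, but Cgas was at 1.64 ± 0.29 TPM.

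Lists of mitochondrial genes had higher medians than the glycolysis list, which also holds transporters, regulators and isoforms near 0. These medians depend on which genes each list holds, so they do not rank the pathways. The highest glycolytic gene (337 TPM) lay within the range of the nuclear oxidative phosphorylation genes, 28.4 to 443 TPM. The nuclear genes of oxidative phosphorylation were all detected (23 of 23) with a median of 119 TPM, led by the ATP synthase subunits Atp5a1 (468, 454, 438 and 413 TPM) and Atp5b (360 ± 12.1 TPM) and by Cox4i1 (303 ± 33.1 TPM). Of the 13 mitochondrially encoded genes 12 were detected, from mt-Co1 down to mt-Nd6 (103 ± 27.3 TPM). The values of mt-Nd6, 138, 103, 97.1 and 71.8 TPM, were spread more than those of any other detected member. The gene mt-Nd4l had 1 count per library on average. It shares 2.36% of its exon bases with a gene on the same strand, and whether its RNA was absent was not tested. The tricarboxylic acid cycle followed with 27 of 28 detected and a median of 49.4 TPM. Sdha (194 ± 3.75 TPM), Mdh1 (182 ± 12.9 TPM) and Idh3g (159 ± 7.94 TPM) were its highest members, and Pdk4, a brake on pyruvate use, was at 0.005 TPM.

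The glycolysis list had 22 of 26 genes detected and a median of 24.6 TPM. Aldoa was at 367, 335, 334 and 313 TPM, followed by Pkm (179 ± 5.25 TPM), Ldha (164 ± 11.95 TPM), Gpi1 (164 ± 3.20 TPM), Eno1 (150 ± 11.7 TPM) and Pgk1 (116 ± 6.11 TPM). Gapdh was at only 18.3 ± 1.495 TPM; it has many near-identical copies in the mouse genome, so its count is uncertain. The glucose transporters Slc2a1 and Slc2a3 were at 52.4 ± 5.07 and 25.4 ± 0.52 TPM. Of the hexokinases Hk1 was at 22.7, 23.1, 25.4 and 24.0 TPM, Hk2 at 4.78, 4.63, 4.83 and 4.55 TPM and Hk3 at 0.73 ± 0.10 TPM, an order that held in each library. Ldhb (0.055 TPM), Slc16a3 (0.053 TPM) and Pklr (no count) were under 1 TPM. All 7 genes of the pentose phosphate pathway were detected; Taldo1 was at 243 ± 18.5 TPM and the other 6 lay between 41.1 and 68.2 TPM.

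Lipid genes were led by Scd1, the desaturase that makes oleic acid, at 1084, 1188, 1068 and 1054 TPM. It was more than an order of magnitude above its relative Scd2 (69.1 ± 3.91 TPM). Of the 25 genes of fatty acid and cholesterol synthesis 24 were detected, with the sterol regulator Srebf2 at 174 ± 2.498 TPM and Acly at 147 ± 6.78 TPM. The liver X receptor Nr1h2 was at 126 ± 4.58 TPM and its relative Nr1h3 at 0.53 TPM. Of 16 fatty acid oxidation genes 15 were detected, with a median of 34.4 TPM and Acadl highest (90.2 ± 5.71 TPM). Cpt1a, which controls entry of fatty acids into mitochondria, was at 43.6, 45.5, 53.2 and 71.6 TPM, with replicate 4 highest, and Ppara was at 0.022 TPM.

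Amino acid genes were headed by the glutamine transporter Slc1a5 (271, 249, 261 and 256 TPM), whereas Slc7a5, the transporter of large neutral amino acids, was at 15.9 ± 1.61 TPM. Asns, which makes asparagine, was at 0.23 TPM. Nucleotide synthesis genes were all detected (19 of 19), from Samhd1 (301 ± 6.83 TPM), which degrades deoxynucleotides, and the salvage gene Hprt (182 ± 13 TPM) down to Rrm2 (3.50 TPM) and Tyms (2.34 TPM), which serve DNA synthesis. Among nutrient sensors, Txnip, an inhibitor of glucose uptake, was highest at 851, 892, 766 and 838 TPM. Mtor was at 22.9 ± 1.19 TPM and Hif1a at 66.1 ± 4.20 TPM, and the AMPK catalytic subunit was of the Prkaa1 form (39 ± 1.34 TPM), with Prkaa2 at 0.072 TPM.

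Genes of the cell cycle ranged from well detected replication genes to mitotic genes below 1 TPM. Mki67, a marker of cycling cells, was at 0.54, 0.65, 0.74 and 0.76 TPM, and Cdk1 (0.31 TPM), Ccna2 (0.29 TPM), Birc5 (0.45 TPM) and Bub1 (0.11 TPM) were also below 1 TPM, while the mitotic genes Cdc20 (7.31 TPM), Aurkb (4.83 TPM) and Aurka (3.89 TPM) were above it. Of the 20 proliferation genes 12 were detected, beside 31.0% of all genes, and the 6 at 10 TPM or more were Pcna (118 ± 9.20 TPM) and 5 Mcm genes, which act in DNA replication and its licensing, at 17.3 to 57.6 TPM. The inhibitor Cdkn1b (175, 188, 164 and 158 TPM) was the highest of 18 genes of cell cycle entry and arrest. Among D-type cyclins, Ccnd3 was at 25.8 ± 1.70 TPM, Ccnd2 at 13.1 ± 1.25 TPM and Ccnd1 at 0.20 ± 0.02 TPM, and these levels were apart in every library.

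Of 18 apoptosis regulators 14 were detected. The prosurvival gene Mcl1 was far above the rest at 748, 686, 657 and 625 TPM. Bcl2 was at 62.9, 64.0, 71.0 and 76.6 TPM and Bcl2l1, the gene of BCL-XL, at 2.503 ± 0.29 TPM. Bax (96.8 ± 10.3 TPM) and Bak1 (59.3 ± 1.28 TPM), the effectors of cell death, and the initiators Bmf (52.9 ± 3.89 TPM), Bid (45.4 ± 1.57 TPM) and Bcl2l11 (22.6 ± 1.46 TPM), which encodes BIM, were also present. Pmaip1 was at 30.1, 36.9, 22.8 and 22.4 TPM, with replicates 1 and 2 above the others. The Bcl2a1 genes are near-identical copies, and their counts are uncertain.

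Immediate early genes respond quickly to stimulation and handling, and 18 of 21 early response genes were detected. Nfkbia (414 ± 11.96 TPM), Ier5 (247 ± 19.2 TPM), Dusp2 (158 ± 21.1 TPM), Jund (147 ± 25.5 TPM, with 52.6% of its exon bases shared with a gene on the opposite strand) and Ier2 (96.3 ± 12.7 TPM) were highest. Fos was at 16.6, 12.99, 16.02 and 19.2 TPM and Egr1 at 12.2, 10, 12.7 and 12.3 TPM, and their ranges did not overlap. Atf3 (0.33 TPM), Rgs1 (0.076 TPM) and Ier3 (0.046 TPM) were under 1 TPM.

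Lists of markers of other cell types ran from 0 of 10 genes detected for neutrophils to 6 of 10 for red cells. Beside these stand 31.0% of all genes and 9941 of 21478 protein coding genes. None of 10 neutrophil genes was detected, and their summed level was 0.138 to 0.347 TPM over the 4 libraries. Of 15 T cell genes 4 were detected, led by Lck (33.2 ± 1.31 TPM), a kinase also expressed in some B cells, while Cd3e and Bcl11b had no count and Cd3d was at 0.21 TPM. Of 10 natural killer cell genes only Prf1 (2.35 TPM) was detected, and Ncr1, Gzma and Nkg7 had no count. Monocyte and macrophage genes showed 7 of 16 detected, with a summed level of 23.1 to 26.9 TPM and Cd68 highest at 9.73 TPM; Csf1r was at 0.17 TPM and Lyz2 at 1.71 TPM. Dendritic cell genes had 4 of 12 detected, of which Bst2 (100 ± 10.2 TPM) took most of the sum and Siglech was at 0.005 TPM. Of stromal and endothelial genes only Pecam1 (133 ± 4.72 TPM) of 12 was detected, a gene that B cells also express, and Pdgfra and Col3a1 had no count. Platelet genes reached 4.999 TPM in Ppbp, with 4 of 8 detected. Summed levels over the 4 libraries ranged from 36.5 to 41.1 TPM for the T cell list, 2.41 to 3.08 TPM for natural killer cells, 94.8 to 118 TPM for dendritic cells, 8.12 to 12.7 TPM for platelets and 129 to 140 TPM for stroma and endothelium.

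Of the red cell genes at 10 TPM or more, Hbb-bs varied most between libraries. Hbb-bs, an adult beta globin, was at 6.97, 5.72, 10.5 and 31.3 TPM, so replicate 4 was above the other 3. The summed level of 10 erythroid genes was 69.2, 73.2, 79.0 and 109 TPM, of which Tfrc (43.0 ± 2.98 TPM) was the largest part, and Slc4a1 was below 0.1 TPM. Globin genes have near-identical copies, so the split between them is uncertain.

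Markers of other B cell states were read in the same way. Germinal centre genes had 7 of 12 detected, but apart from Lmo2 (338 ± 14.2 TPM) none reached 10 TPM. Plasma cell genes had 10 of 12 detected, led by Mzb1 (407 ± 26.5 TPM) and Txndc5 (141 ± 8.49 TPM), of which Mzb1 is also expressed in other B cells. Jchain was at 1.84, 1.34, 1.60 and 2.80 TPM and Sdc1 at 8.09 ± 0.62 TPM. Of 16 transitional and precursor genes 7 were detected. Ly6d, Cd24a and Vpreb3 (292 ± 29.2 TPM) were high, while Rag1 was at 0.011 TPM and Rag2, Dntt and Igll1, genes of receptor assembly, had no count. Of 12 marginal zone genes 11 were detected, Cr2 and Ephx1 (197 ± 6.07 TPM) highest, then Notch2 (147, 177, 166 and 190 TPM), the receptor that instructs marginal zone fate. S1pr3, a receptor used by marginal zone cells, was at 6.38, 4.32, 4.17 and 4.11 TPM. Of 11 B1 cell genes found, 9 were detected and Plac8 was highest (457 ± 19.8 TPM), while Ctla4 was at 0.078 TPM. No library of purified marginal zone, B1 or germinal centre cells belongs to this group, so these levels have no reference beside them, and the part of such cells in the results was not tested. Their summed levels were 345 to 375 TPM for the germinal centre list, most of it Lmo2, 824 to 921 TPM for plasma cells, 1116 to 1149 TPM for the marginal zone and 536 to 572 TPM for B1 cells, most of it Plac8, while the transitional list ran from 4032 to 5214 TPM, most of it Ly6d.

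Sex is not given in the labels. The Y-linked genes Ddx3y, Eif2s3y, Kdm5d and Uty summed to 217, 252, 234 and 247 TPM, and Xist, transcribed from the inactive X chromosome, was at 0.022 TPM on average, so all 4 libraries were alike in sex-linked genes.

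Spread between libraries was measured in 8040 genes of at least 10 TPM and 100 counts, as the coefficient of variation (CV, the SD over the mean) beyond what counting alone gives. The median CV was 5.51%, the median from counting 2.03% and the median excess 4.95%. The excess was over 20% in 102 genes, 1.27% of those measured, over 50% in 7 genes, and 0 in 602. Without replicate 1 the count over 20% was 66 and the median excess 3.29%. Ighd (excess 2.11%) was a gene of little spread, Cd74 had 7.55% and Igkc 11.2%. Of the genes in the lists described above, those over 20% included Ptpn22 (25.4%), Pmaip1 (24.4%), Cpt1a (23.9%), Il9r (23.1%), Cd81 (23.0%), Cxcr4 (20.4%) and Bcl6 (20.2%). Immunoglobulin variable segments had a median excess of 7.19% over 168 segments, and 4 of them were over 20%.

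The widest spread was in Hbb-bs (87.5%), followed by the heat shock gene Hspa1b (56.9%), the surface gene Ly6k (56.2%), the small nuclear RNA Rn7sk (54.7%) and Faah (52.3%), a hydrolase of fatty acid amides. Rn7sk was at 278, 123, 98.1 and 113 TPM, with replicate 1 apart, as was the host gene of miR-142, Mir142hg, at 1233, 665, 631 and 672 TPM. Faah was at 61.4, 63.1, 36.5 and 14.7 TPM and Plpp3, a lipid phosphatase, at 41.8, 41.7, 27.4 and 10.7 TPM; both had replicate 4 lowest. At the other end, the kinase Prkd2 was at 212, 211, 212 and 213 TPM, and Orc6, of the replication origin complex, at 15.8, 15.7, 15.7 and 15.6 TPM, both with no excess.

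Molecular chaperones, which help proteins fold and are induced by heat and other stress, made up 5 of the 15 genes of widest spread, and a list of 26 was then drawn up after these values had been seen. Hspa8 was at 1236, 1342, 688 and 711 TPM, Hsp90ab1 at 1853, 2095, 1378 and 1343 TPM and Hsp90aa1 at 348, 449, 209 and 219 TPM. In each of the 3, replicates 1 and 2 were above replicates 3 and 4. Of 20 chaperone genes at 10 TPM or more, 14 had an excess over 20% (10 with plain TPM scaling), beside 1.27% of all measured genes, and nothing is read from this share since the list was drawn up on it. In 18 of the 20, replicates 1 and 2 were both above replicates 3 and 4, an order found in 2381 (29.6%) of all 8040 genes. Nothing is read from this count either, since the list was drawn up after these values had been seen. Some of the differences were small, as in Dnaja2 (168, 153, 149 and 144 TPM). The members without that order were Hsf1 (32.6, 29.4, 31.6 and 31.4 TPM), the factor that drives heat shock genes, and Dnajb6 (44.8, 44.2, 44.7 and 42.7 TPM). Hspa1b and Hspa1a (7.34 ± 5.22 TPM) are near-identical, so the split between them is uncertain. Cxcr4 was highest in replicate 2 and Bcl6 in replicates 1 and 2, and whether these differences go with those of the chaperones was not tested.

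**Figure D4:**
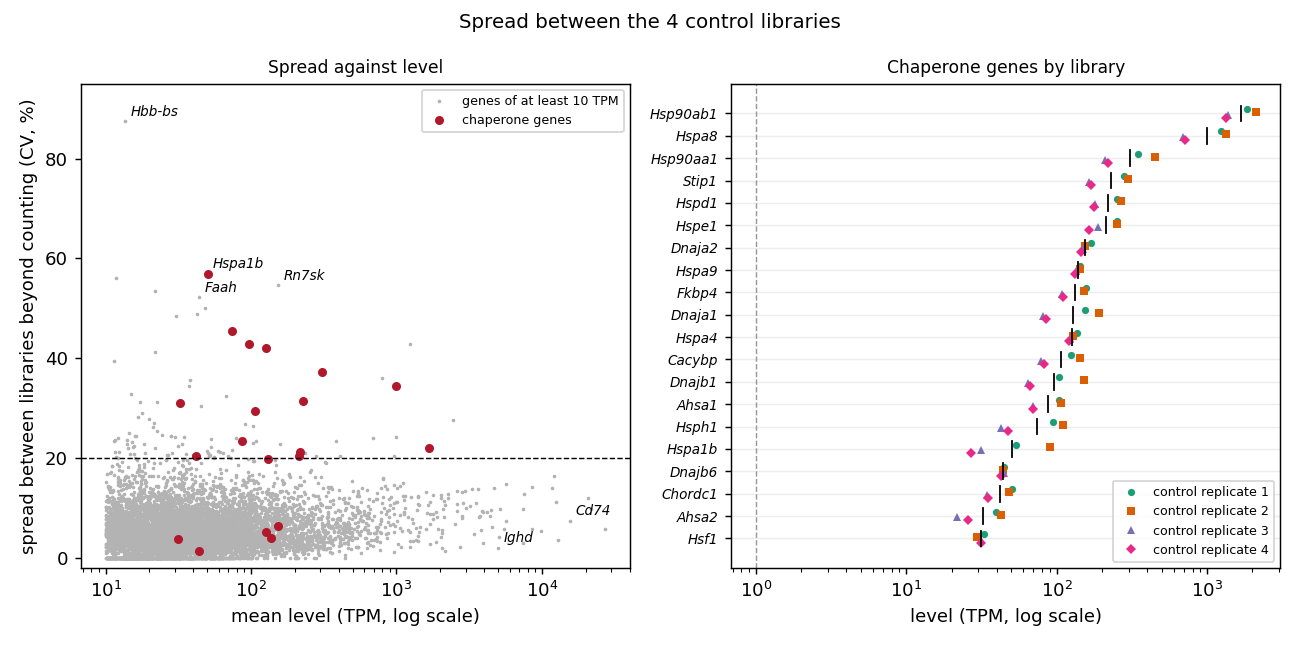
Left, spread between the 4 libraries beyond counting (CV in percent) against mean level (TPM, log scale) for genes of at least 10 TPM and 100 counts, chaperone genes in red, the 20% line dashed. Right, levels of the 20 chaperone genes of at least 10 TPM by library (TPM, log scale; ticks are means), in which replicates 1 and 2 lie to the right of replicates 3 and 4 for 18 genes. The chaperone list was drawn up after these values had been seen.

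Gene length moved with the differences between libraries. In the 1608 shortest of the 8040 genes (204 to 2276 nt of exons) the median log2 ratio of replicate 1 to the other 3 was 0.163, and in the 1608 longest (7237 to 35542 nt) it was -0.108. Replicate 4 went the other way, from -0.099 to 0.055, and replicates 2 and 3 lay between -0.059 and 0.031. Ribosomal protein genes by share of counts, Cd74, Igkc, Ly6d and the summed nuclear oxidative phosphorylation genes (3772, 3382, 3261 and 3189 TPM) were highest in replicate 1, and the part of gene length in these differences was not tested. Libraries were otherwise alike: Pearson's r of log2 levels over 11352 genes was 0.993 to 0.997 for the 6 pairs, and replicate 1 lay more than 1.5-fold above the mean of the other 3 in 17 genes and below it in 25, beside 3 to 12 above and 6 to 14 below for the other libraries.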

How the data were processed

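The data are RNA-seq counts per gene of sorted splenic follicular B cells, in 4 control libraries of 8. Per the submitters' processing notes, the tools were TopHat2 2.0.12, Trim Galore, DESeq2 1.10.1 and HTSeq, with the GRCm38 build; neither their roles nor the strand setting of the counting are stated there. Raw counts for 43629 genes were deposited. Their deposited normalized signal table was only checked: in each library it is the raw count divided by 1 factor (1.0653, 1.256, 1.0651 and 1.0307). The authors' table of their group comparison was not used.

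Here, counts were divided by merged exon length (GENCODE mouse release 21), libraries were scaled by TMM (edgeR 4.0.16) over the 4 controls, and the mean library total was set to 1000000, which gives TPM. Genes without annotation or with under 200 nt of exons (a minimum set after seeing the data, since short segments give inflated levels with 100 bp reads) had no level; these 7030 genes held 0.26% of counts. No test was run: values are means ± SD over 4 libraries, and a replicate number only names a library in accession order. Counting CV comes from the mean count, and the excess is the square root of the difference of the squared CVs, or 0. Reads carry no molecular identifiers, so counting error is a lower bound. The calculation was tested on simulated counts. Python 3.11.15 with pandas 2.3.3 was used.

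Genes were grouped in 47 lists of 753 names, of which 752 were matched. Named genes are the 20 most abundant, up to 8 highest members of each list, members under 1 TPM, the members of widest spread and the 15 most and 10 least variable genes. Members of a list given beyond this rule, among them Fyn, Fcgr2b, Cd86, Pax5, Ebf1, Foxo1, Bach2, Bcl6, Hk1, Hk2, Mtor, Fos and Egr1, were chosen for their known role after values had been seen. Members and lists were chosen with earlier results of these data known. In 5 of 752 list members over 50% of exon bases are shared with another gene. Promoters are RefSeq entries on GRCm38.p6, searched for CCAAT and ATGCAAAT on both strands. Alternatives were other lengths and scalings, immunoglobulin genes left out, other minimums and each library left out. Levels of some list members are not reported here, although list counts and medians include them.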

Additional observations from a re-analysis of the deposited data

Results flagged for a closer look

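In groups of 4 libraries, 455 values were examined for a single library far from the other 3 by Dixon's ratio of gap to range at its 95% critical value. They were levels of named genes at 10 TPM or more, together with shares, ratios and summed levels per library. Chance alone flags about 1 in 20 such groups, and 19 were found.

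In 14 of them the library standing apart was replicate 1. It was above the other 3 for Cd81 (213.8 TPM against 137.3 to 143.7), Zfp36l1 (599.4 against 523.0 to 533.6), Uqcrfs1 (113.7 against 91.93 to 93.95), Phgdh (69.34 against 63.15 to 64.09), Aprt (56.44 against 47.69 to 48.35), Eno3 (45.27 against 44.82 to 44.89), Pik3r4 (32.89 against 29.2 to 29.72), Bcl2a1d (29.44 against 19.09 to 19.8) and Cpt2 (18.72 against 16.1 to 16.44). Replicate 1 was below the others for Ikzf3 (209.0 against 292.5 to 305.8), Cd84 (77.0 against 90.2 to 92.88), Tnfrsf14 (45.66 against 60.68 to 62.25), Tsc2 (26.81 against 27.58 to 27.63) and Il5ra (21.32 against 28.43 to 28.88). Eno3 and Tsc2 were flagged because their other libraries were nearly equal, and their own differences were under 1 TPM.

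Replicate 4 was above the others for Klf13 (144.9 TPM against 126.3 to 128.8), Il12a (49.92 against 41.58 to 42.9) and Jun (38.33 against 31.07 to 31.37). Replicate 3 was above for Ikzf1 (268.6 against 253.6 to 255.8), and replicate 2 for Tfrc (47.42 against 41.26 to 41.77).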

How the results depend on the processing

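Over 15 results and 14 settings, 126 values were recomputed under alternatives. Of these, 104 stayed within 1 SD of the reported value (counts within 1.5 times it) and 22 moved further. The cause was not tested where no construction shows it. With the length of the longest transcript in place of merged exons, the median level changed to 2325 TPM for the B cell receptor genes, 129.5 for trafficking receptors, 1.491 for type I cytokine receptors, 101.2 for B lineage transcription factors, 27.89 for glycolysis and 149.5 for nuclear oxidative phosphorylation, and the ratio of Ighm to Ighd to 1.814. With immunoglobulin genes left out of the total, which raises every other level, the medians were 3163 TPM for the receptor genes, 598.0 for antigen presentation, 160.7 for trafficking, 1.741 for type I cytokine receptors, 1.31 for TNF receptors, 96.39 for transcription factors and 26.46 for glycolysis. Leaving out each library gave medians of 145.0 to 156.5 TPM for trafficking receptors, 86.94 to 92.82 for transcription factors and 24.12 to 25.37 for glycolysis, and 66 to 139 genes with an excess spread over 20%, with a median excess of 3.294% to 5.404%. In each of these the value without replicate 1 was at 1 end of the range. The count over 20% was 205 among genes of at least 1 TPM and 100 counts and 60 among genes of at least 30 TPM, which are larger and smaller sets of genes. With the trend in gene length removed, an alternative chosen after seeing the data, the median excess was 4.008%, with 95 genes and 12 chaperone genes over 20%. The number of chaperone genes over 20% was 12 to 15 when each library was left out. Merged exons count every annotated isoform, so a gene that uses its short isoforms has a level set too low. No paired analysis was possible because only 1 group is described.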
